A study of Mus musculus with 10 samples.

Results

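Monocarboxylate transporters are the membrane proteins of the SLC16 family that carry lactate, pyruvate, ketone bodies and related small acids. The group described here comprised 8 of their genes, Slc16a1, Slc16a3, Slc16a4, Slc16a6, Slc16a7, Slc16a9, Slc16a12 and Slc16a13, and Bsg, which encodes basigin, the partner protein of some of them. Members were taken by gene symbol from a count table of interscapular brown adipose tissue, and all 9 were among its 20295 genes. The tissue came from male C57BL/6JBomTac mice of 8 weeks, each housed singly with chow and water freely given. In the control group 5 mice stayed at 22 °C, in the cold group 5 mice spent 3 days at 4 °C, and each mouse gave 1 library of poly-A selected RNA. The labels name no transgene, deletion or agent in either group. The treatment label of the cold samples still names room temperature beside 4 °C, while their titles and source names give the cold group.

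SLC16A proteins of the MCT1 to MCT4 type move a monocarboxylate together with a proton, so the direction of transport follows the gradients of both. MCT1 (Slc16a1) and MCT4 (Slc16a3) reach the plasma membrane mainly in complex with basigin, a glycoprotein of the immunoglobulin superfamily, while MCT2 (Slc16a7) is paired mainly with the related protein embigin. Other members of the family carry other substrates, such as creatine or carnitine. Brown adipocytes burn fatty acids and glucose to make heat, and they both take up and release lactate.

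Library totals lay between 4446163 and 5776905 counts in control and between 5676963 and 6923932 counts in cold libraries. Levels are given as CPM, the count relative to the scaled library total, where 1 CPM stood for 4.35 to 7.02 reads depending on the library. Changes are cold over control as log2 fold change with standard error (SE), from edgeR's quasi-likelihood test on 11229 genes with enough reads, and adjusted p-values are those of Benjamini and Hochberg over all of these genes. On the first 2 principal components control replicate 2 and cold replicate 5 stood apart from the rest of their groups, and results that rest on them are given with and without them. All 12 brown adipocyte markers had reads in every library, and their summed level was 27198 to 31307 CPM in control and 37711 to 42996 CPM in cold libraries. Of these markers 4 rose (Ucp1, Elovl3, Cox7a1 and Pank1) and 2 fell (Cox8b and Adipoq), with a median log2 fold change of 0.03, and Ucp1 and Fabp4 made up most of the sum. Among all genes tested 10.2% rose and 9.14% fell, with a median of -0.02.

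The start of the Slc16a1 gene is shown because Slc16a1 made up most of the transporter RNA measured here. The window holds the 250 bases before the annotated start (RefSeq, build GRCm38.p6, plus strand, chr3:104638414-104638663). Capitals mark matches, on either strand, to CACGTG (E-box), ACGTG or GCGTG (cores of hypoxia response elements).
Slc16a1 promoter: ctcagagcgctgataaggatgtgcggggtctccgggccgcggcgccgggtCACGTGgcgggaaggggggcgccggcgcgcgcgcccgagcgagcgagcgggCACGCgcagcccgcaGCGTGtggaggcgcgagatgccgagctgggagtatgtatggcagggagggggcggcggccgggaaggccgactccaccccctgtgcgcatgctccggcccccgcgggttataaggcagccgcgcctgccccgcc
The printed bases had a GC content of 76.4% with 37 CpG dinucleotides, where the median over 32851 promoters of the RefSeq table was 52.4% GC and 6 CpG. Over a window that runs 50 bases past the start, 7.15% of all promoters held CACGTG, 19.6% held ACGTG and 32.4% held GCGTG. The first capital run is an E-box, which contains ACGTG on both strands, and 1 further ACGTG lies 21 bases into the transcript and is not printed. GCGTG occurred once on each strand. The whole window held no match to TGACGTCA (the full cAMP response element), TGACG (its short form), TCAAGGTCA (an extended nuclear receptor site) or the direct repeat of the core nuclear receptor site spaced by 1 base. These motifs occurred in 1.79%, 20.8%, 0.423% and 0.0396% of all promoters. Promoter windows were at hand for 5 of the 9 members, and Bsg and Slc16a7 were not among them.

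Cold exposure went with more RNA of Bsg and Slc16a1 and with less RNA of Slc16a7, while the remaining members were scarce in both groups. Of the 9 members, 6 passed the filter on low counts, 2 rose (Bsg and Slc16a1) and 1 fell (Slc16a7). Over all genes tested, 10.2% rose and 9.14% fell. Without both libraries that stood apart the members gave the same counts, 2 and 1. The number that rose was 1 in 6 of the 10 fits that each left out 1 library (control replicate 4 or 5, or cold replicate 1, 2, 3 or 4), where Slc16a1 lost its call. The other 3 members, Slc16a4, Slc16a9 and Slc16a12, had at most 13 reads in any library and were left out by the filter. In bulk tissue, fewer cells of a type and less RNA per cell cannot be told apart.

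**Figure D1:**
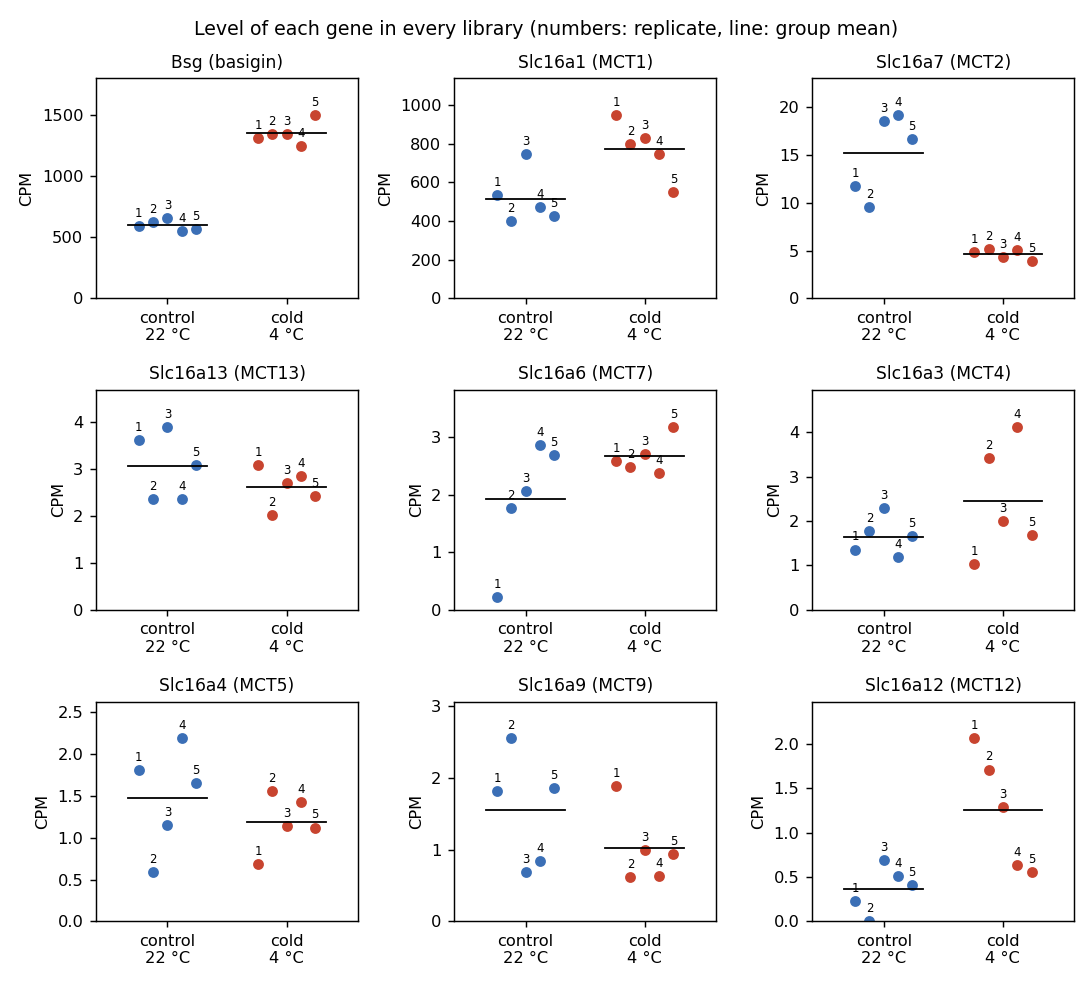
CPM of the 9 members (y axes, each from 0) in the 5 control and 5 cold libraries, with 1 point per library, its replicate number and a line at the group mean. Cold and control libraries do not overlap for Bsg (1243 to 1497 against 548 to 656 CPM) or Slc16a7 (3.93 to 5.13 against 9.61 to 19.2 CPM), and they overlap for the other 7 members (over all genes tested, 14% did not overlap).

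Per kilobase of counted bases, which allows genes to be compared, Bsg was the most abundant member in both groups and Slc16a1 the most abundant transporter. In control libraries Bsg stood at 341 ± 25.1 CPM per kb (SD, n = 5), Slc16a1 at 116 ± 31.1, Slc16a7 at 6.28 ± 1.77 and Slc16a13 at 1.21 ± 0.281. Slc16a6 (0.748 ± 0.407), Slc16a4 (0.676 ± 0.284), Slc16a3 (0.662 ± 0.173) and Slc16a9 (0.435 ± 0.218) followed, and Slc16a12 was last at 0.0948 ± 0.0683. Library values of Slc16a13, Slc16a6, Slc16a4, Slc16a3 and Slc16a9 overlapped between neighbours in this order, so neighbouring ranks did not differ beyond the spread. Genes farther apart could differ, as Slc16a13 (at least 0.931) lay above Slc16a3 (at most 0.922) and Slc16a9 (at most 0.716). Between the first 4 places, and between Slc16a9 and Slc16a12, library values did not overlap.

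In cold libraries the first 3 places were again held by Bsg (769 ± 53.1 CPM per kb), Slc16a1 (175 ± 32.7) and Slc16a7 (1.92 ± 0.216). Down to the fourth place, neighbours in this order did not overlap. Slc16a6 (1.04 ± 0.121), Slc16a13 (1.04 ± 0.163), Slc16a3 (0.983 ± 0.513), Slc16a4 (0.543 ± 0.153), Slc16a12 (0.323 ± 0.170) and Slc16a9 (0.285 ± 0.145) followed, each overlapping its neighbour. Slc16a7 was not clear of all of these, as Slc16a3 in cold replicate 4 (1.65) lay above Slc16a7 in cold replicate 5 (1.62). Of the summed level of the 8 transporters, Slc16a1 held 91.8 ± 1.90% in control and 96.5 ± 0.595% in cold libraries, and Slc16a7 held 5.06 ± 1.40% and 1.08 ± 0.161%. The sum itself was 126 ± 32.1 CPM per kb in control and 181 ± 32.9 in cold libraries, with overlapping ranges of 97.2 to 180 and 130 to 220.

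Slc16a1 encodes MCT1, the widely expressed transporter of lactate, pyruvate and ketone bodies. Its gene lies on chromosome 3 from 104442587 to 104462385 (plus strand, build mm9). Control replicates 1 to 5 held 533, 398, 743, 470 and 426 CPM, and cold replicates 1 to 5 held 947, 799, 828, 746 and 551 CPM. Control replicate 3 lay above cold replicate 5 and just below cold replicate 4, so the groups overlapped. The lowest library of each group was one of the 2 that stood apart, control replicate 2 and cold replicate 5.

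The level of Slc16a1 rose 1.51-fold, from 514 ± 138 to 774 ± 145 CPM (SD, n = 5), or 0.59 on the log2 scale (SE 0.17), with an adjusted p of 0.030 in edgeR's quasi-likelihood test. Without control replicate 2 and cold replicate 5 together the rise was 0.61 (SE 0.15, adjusted p = 0.00822). The estimate was between 0.51 and 0.76 in the 10 fits that each left out 1 library, highest without control replicate 3. The adjusted p exceeded 0.05, so that the call was lost, in 6 of these fits, those without control replicates 4 or 5 or without cold replicates 1, 2, 3 or 4, with values up to 0.0768. In the authors' deposited table Slc16a1 has a log2 fold change of 0.587 and an adjusted p of 0.00665.

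Bsg, on chromosome 10 from 79167103 to 79174724 (plus strand, mm9), had the narrowest spread of the members relative to its level. Control replicates 1 to 5 held 594, 626, 656, 548 and 567 CPM of it. Cold replicates 1 to 5 held 1309, 1342, 1344, 1243 and 1497 CPM. All 5 cold libraries lay above all 5 controls, which was the case for 7.39% of all genes tested, and the highest value was that of cold replicate 5.

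Bsg rose 2.25-fold, from 598 ± 43.9 to 1347 ± 93.1 CPM (SD, n = 5; log2 fold change 1.17, SE 0.08, adjusted p = 2.05e-06 by edgeR). With 1 library left out the estimate stayed between 1.13 and 1.20, and without both libraries that stood apart it was 1.14 (adjusted p = 1.23e-06). The authors' deposited table gives 1.169.

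**Figure D2:**
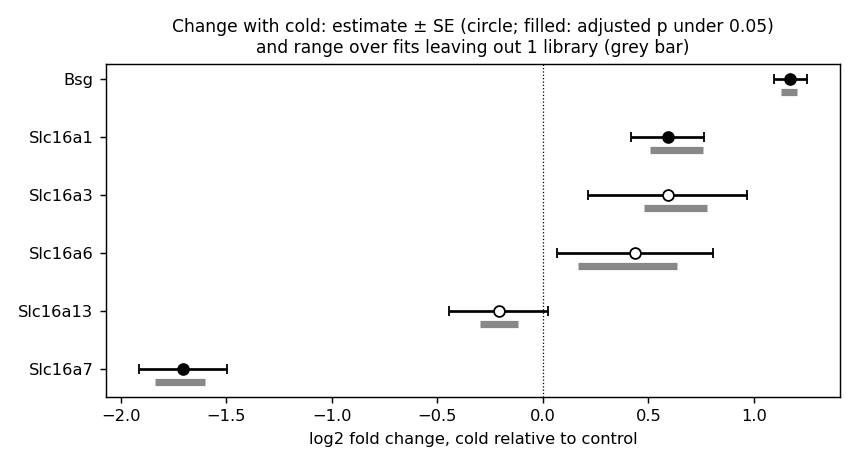
Log2 fold change, cold over control (x axis), for the 6 members that passed the filter, as estimate ± SE (circles, filled where the adjusted p was under 0.05), with the range over the fits that left out 1 library (grey bars; 7 such fits for Slc16a3, which missed the filter in 3, and 10 for the others). Bsg at 1.17 and Slc16a7 at -1.70 lie farthest from 0, with grey bars from 1.13 to 1.20 and from -1.84 to -1.60. Slc16a1 at 0.59 has a grey bar from 0.51 to 0.76.

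Since basigin is the main partner of MCT1, the 2 transcripts were also compared within each library, where the scaling factor cancels. Per kilobase, Bsg stood 3.07 ± 0.648 times above Slc16a1 in control and 4.59 ± 1.31 times above it in cold libraries (SD, n = 5). On the log2 scale the ratio of Slc16a1 counts to Bsg counts went from -0.25 ± 0.31 to -0.82 ± 0.37, a difference of -0.57 (two-sided exact permutation test over the 10 libraries, p = 0.0159, 0.0317 adjusted over the 2 ratios tested). Control libraries spanned -0.65 to 0.18 and cold libraries -1.44 to -0.47, so they overlapped. The lowest ratio was that of cold replicate 5, and without that library the difference was -0.41 and was no longer called (exact permutation p = 0.0317, 0.0635 adjusted over the 2 ratios). The call was lost in 8 of the 10 cases with 1 library left out, all but those without control replicate 2 or cold replicate 1, with adjusted exact p-values up to 0.0952. Without both libraries that stood apart the difference was -0.51 (adjusted exact p = 0.0571).

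**Figure D3:**
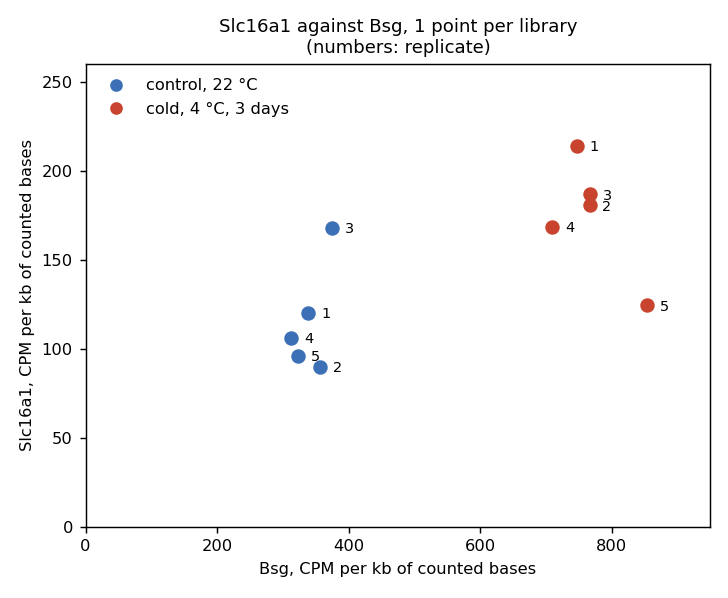
Level of Slc16a1 (y axis) against that of Bsg (x axis), both in CPM per kb of counted bases, with 1 point per library and its replicate number. The 2 groups separate along Bsg (mean 341 in control and 769 in cold libraries) but overlap along Slc16a1, where control replicate 3 lies high and cold replicate 5 lies low.

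Slc16a7 encodes MCT2, a transporter with high affinity for pyruvate, lactate and ketone bodies. The gene spans 124664541 to 124765591 on chromosome 10 (minus strand, mm9). Controls 1 to 5 held 11.8, 9.61, 18.6, 19.2 and 16.7 CPM, equal to 49 to 114 reads. Cold libraries 1 to 5 held 4.81, 5.13, 4.28, 5.07 and 3.93 CPM, equal to 21 to 33 reads. All 5 cold libraries lay below all 5 controls, as they did for 6.57% of all genes tested.

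The mean of Slc16a7 went from 15.2 ± 4.27 to 4.64 ± 0.523 CPM (SD, n = 5). The gene fell by 1.70 on the log2 scale (SE 0.21, edgeR adjusted p = 0.000131), the only fall called among the members. The estimate lay between -1.84 and -1.60 with single libraries left out and at -1.79 without both libraries that stood apart. The authors' deposited table gives -1.708.

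Slc16a3 encodes MCT4, the exporter of lactate in strongly glycolytic cells, and had 6 to 26 reads per library. Its mean level was 1.65 ± 0.430 CPM in control and 2.45 ± 1.28 CPM under cold (SD, n = 5). Controls 1 to 5 had 6, 9, 10, 7 and 8 reads, and cold libraries 1 to 5 had 6, 22, 14, 26 and 9. In CPM, cold replicates 2 and 4 lay above every control and cold replicate 1 below every control. The log2 fold change of 0.59 had the same size as that of Slc16a1 but an SE of 0.38 (adjusted p = 0.293 by edgeR). The log2 ratio of Slc16a1 to Slc16a3 counts was 8.28 ± 0.365 in control and 8.45 ± 0.902 in cold libraries (difference 0.17, exact permutation p = 0.738), and the difference was -0.18 without cold replicate 1.

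Slc16a6 encodes MCT7, a transporter known for the release of ketone bodies from liver. It had 1 read in control replicate 1 and 9 to 19 reads in each of the other 9 libraries. Controls lay between 0.226 and 2.86 CPM with a median of 2.07, and cold libraries between 2.38 and 3.18 with a median of 2.58. The log2 fold change was 0.43 (SE 0.37, adjusted p = 0.440 by edgeR), and 0.17 without control replicate 1. Slc16a6 overlaps the oppositely oriented gene Arsg by 223 bases at its start, and no strand setting of the counting is given. Arsg measured 7.54 ± 0.646 CPM in controls against 2.42 ± 0.609 under cold (SD, n = 5), and its part in the value of Slc16a6 was not tested.

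Slc16a13 encodes MCT13, a lactate transporter, and had 12 to 19 reads per library. Control libraries held 2.35 to 3.91 CPM (median 3.10) and cold libraries 2.02 to 3.09 (median 2.71). The groups overlapped, at -0.21 on the log2 scale (SE 0.23, edgeR adjusted p = 0.574).

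Slc16a12 encodes a creatine transporter and was nearly undetected in control mice. Control replicates 1 to 5 held 1, 0, 3, 3 and 2 reads, and cold replicates 1 to 5 held 12, 11, 9, 4 and 3 reads. In CPM these were 0 to 0.689 in control and 0.561 to 2.06 in cold libraries. Cold replicates 1, 2 and 3 lay above every control, and cold replicates 4 and 5 did not. The count of 0 in control replicate 2 allows up to 0.588 CPM, and this limit covers counting error only. Without the filter on low counts the log2 fold change was 1.72 (SE 0.59), with an adjusted p of 0.0682 in the quasi-likelihood test.

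Slc16a9 encodes MCT9, a carnitine transporter, and Slc16a4 encodes MCT5, whose substrates are poorly known. Slc16a9 had 38 reads over all control and 31 over all cold libraries, at 1.55 ± 0.775 and 1.02 ± 0.517 CPM (SD, n = 5). Slc16a4 had 37 reads in either group, at 1.48 ± 0.622 and 1.19 ± 0.335 CPM. Both overlapped between groups, and without the filter their log2 fold changes were -0.61 (SE 0.45) and -0.32 (SE 0.39), with adjusted p-values of 0.414 and 0.631 in the quasi-likelihood test.

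Among further transporters and partners, Slc16a10 and Emb had enough reads for the test, and neither was called by edgeR, although both had an unadjusted p under 0.05. Slc16a10, a transporter of aromatic amino acids, measured 46.7 ± 10.3 CPM in controls and 34.8 ± 2.29 under cold (SD, n = 5), a difference of -0.42 on the log2 scale (SE 0.14, edgeR adjusted p = 0.0556). Without control replicate 2, the only control below every cold library at 30.0 CPM, it was -0.55 (adjusted p = 0.00125). Per kilobase its mean exceeded that of Slc16a7 in either group, at 8.66 ± 1.92 CPM per kb in control against 6.28 ± 1.77.

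Emb, which encodes embigin, the partner of MCT2, stood at 0.920 ± 0.342 CPM per kb in control, far below Bsg at 341 ± 25.1 (SD, n = 5). Controls 1 to 5 held 3.17, 2.16, 1.38, 1.85 and 3.51 CPM, and cold libraries 1 to 5 held 3.43, 4.82, 5.84, 7.13 and 2.06 CPM. Cold replicates 2, 3 and 4 lay above every control. Its change of 0.96 on the log2 scale missed the threshold (SE 0.35, edgeR adjusted p = 0.0682). Without cold replicate 5 it was 1.14 (adjusted p = 0.0170). With DESeq2 the adjusted p was 0.0374 for Slc16a10 and 0.0485 for Emb, and the authors' deposited table gives 0.0403 and 0.0404 for these genes. Slc16a5, Slc16a8 and Slc16a11 had 0 to 10 reads per library. Slc5a8 had 1 read in all, and Slc16a14 and Slc5a12 had 0 in every library, which allows up to 0.428 to 0.689 CPM depending on the library.

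**Figure D4:**
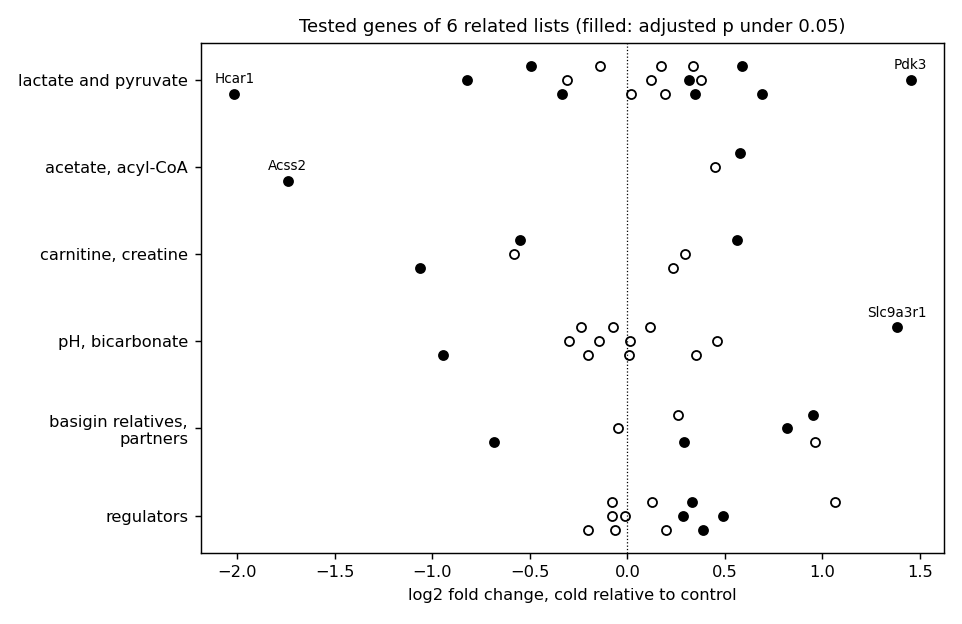
Log2 fold change, cold over control (x axis), for the tested genes of 6 lists related to monocarboxylate transport (rows), filled where the adjusted p was under 0.05. Most genes lie near 0, and Hcar1 at -2.01, Acss2 at -1.74, Pdk3 at 1.45 and Slc9a3r1 at 1.38 lie farthest out with the call.

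Enzymes and receptors that handle the same substrates moved in both directions. Of 17 tested genes of lactate and pyruvate handling, 5 rose (Ldha, Mpc2, Pdk3, Pdk4 and Ndrg3) and 4 fell (Pcx, Hcar1, Ldhd and Mpc1), with a median log2 fold change of 0.17 against -0.02 over all genes tested. Among all genes tested 10.2% rose and 9.14% fell. Hcar1, the cell surface receptor for lactate, fell from 44.7 ± 18.7 to 11.0 ± 5.28 CPM (SD, n = 5; -2.01 on the log2 scale, SE 0.38, edgeR adjusted p = 0.00293). Ndrg3, a lactate-binding protein, rose by 0.59 (SE 0.08), the same size as the rise of Slc16a1. Pdk3, which restrains pyruvate oxidation, rose by 1.45 (SE 0.34), and Pcx, which carboxylates pyruvate, fell by 0.82 (SE 0.10). Hcar1, Ndrg3, Pdk3, Pcx and Ldha kept their call with each library left out. Pdk4 lost it in 6 of 10 such fits, Ldhd in 5, Mpc1 in 4 and Mpc2 in 3. The number that rose was 3 without cold replicate 1, 2 or 3, and the number that fell was 2 without cold replicate 2, 3 or 4. Without both libraries that stood apart 7 rose and 5 fell.

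Bdh1, which interconverts the ketone bodies carried by MCT1, measured 0 to 0.905 CPM in controls against 10.1 to 68.3 under cold. It rose by 6.55 on the log2 scale (SE 0.63, edgeR adjusted p = 2.78e-05) and kept its call with each library left out. Acat1, a thiolase of ketone body use and synthesis, fell by 0.29 (SE 0.08, edgeR adjusted p = 0.0182), a call lost without cold replicate 4. In the 3-gene list of acetate and short-chain acyl-CoA synthesis Acss1, the mitochondrial acetyl-CoA synthetase, rose by 0.57 and Acss2, the cytosolic one, fell by 1.74.

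Of 6 genes for carnitine and creatine, the substrates of Slc16a9 and Slc16a12, 1 rose and 2 fell (median -0.16). Among all genes tested 10.2% rose and 9.14% fell (median -0.02). The number of these 6 genes that fell was 1 without control replicate 1, 2, 4 or 5 and 0 without cold replicate 1, 2, 3 or 4. Slc25a20, the mitochondrial carnitine carrier, rose by 0.56 (SE 0.08). Slc6a8, the main creatine transporter of the cell surface, fell by 0.55 (SE 0.16), and Gamt, the last enzyme of creatine synthesis, fell by 1.06 (SE 0.32). Slc6a8 lost its call in 5 and Gamt in 7 of the 10 fits that each left out 1 library. Of 12 genes of pH and bicarbonate transport, 1 rose and 1 fell (median -0.03), and 3 rose without control replicate 2, alone or with cold replicate 5, and 2 without cold replicate 1. Slc9a3r1, a scaffold of proton exchangers, rose by 1.38 (SE 0.22) and Car5b, a mitochondrial carbonic anhydrase, fell by 0.94 (SE 0.23).

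Of 7 tested relatives and partners of basigin, 3 rose and 1 fell (median 0.29), where 10.2% of all genes tested rose and 9.14% fell (median -0.02). Mmp14, a membrane-bound matrix protease, rose by 0.95 (SE 0.27), Slc3a2, the CD98 heavy chain of amino acid transporters, by 0.82 (SE 0.23) and Nptn, a relative of basigin, by 0.29 (SE 0.09). Slc1a5, a glutamine transporter, fell by 0.68 (SE 0.10). With single libraries left out the call of Nptn was lost in 7 of 10 fits, that of Slc3a2 in 5 and that of Mmp14 in 3, and that of Slc1a5 held in all 10. The number that rose was 1 when control replicate 3, 4 or 5 or cold replicate 1, 2, 3 or 4 was left out. Of 12 regulators linked to monocarboxylate transporter genes, 4 rose and 0 fell (median 0.16), whereas 1 was called when control replicate 4 or cold replicate 1, 3 or 4 was left out, and 2 when cold replicate 5 was. Hif1a, the hypoxia-inducible factor, was higher by 0.39 (SE 0.10, edgeR adjusted p = 0.0196), a call lost without control replicate 4 or cold replicate 1. Epas1, its relative in endothelium and fat, rose by 0.33 (SE 0.09), Ppard, a nuclear receptor for fatty acids, by 0.49 (SE 0.14) and Esrra, a nuclear receptor of mitochondrial genes, by 0.29 (SE 0.09). Ppard and Esrra each lost their call in 6 and Epas1 in 4 of 10 fits with single libraries left out. Without both libraries that stood apart, 4 partners of basigin rose and 1 fell, and 4 regulators rose and 0 fell.

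The genes whose pattern over the 10 libraries was most like that of each called member were found by the root mean square difference of log2 CPM, after centring each gene on its own mean. For Bsg these were Ric3 (difference 0.10), Ucp1, the uncoupling protein of brown fat (0.11), and H13 (0.14), where the median over 11223 genes was 0.65. For Slc16a1 they were Tnk2 (0.15), Rbm47 (0.16) and Myct1 (0.17), where the median was 0.49. For Slc16a7 they were Mgst3 (0.30), Lmo1 (0.31) and Sctr (0.31), where the median was 0.88. Slc16a1 and Bsg differed from each other by 0.41, Slc16a1 and Slc16a7 by 1.14 and Bsg and Slc16a7 by 1.42.

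Markers of other cell types were present at levels that differed between libraries. Their called counts stand beside 10.2% of all genes tested that rose and 9.14% that fell. Endothelial markers, of which 3 of 10 rose, summed to 802 to 1160 CPM in control and 1007 to 1201 CPM in cold libraries. Of 9 macrophage markers 2 rose and 1 fell (114 to 239 and 85.5 to 383 CPM), and of 8 fibroblast and preadipocyte markers 1 rose (441 to 662 and 305 to 994 CPM), with the lowest sum of both in cold replicate 5. Skeletal muscle markers summed to 40.6 to 133 CPM in control and 37.4 to 402 CPM in cold libraries, and none of the 2 tested was called. Of 7 smooth muscle and pericyte markers 1 fell (537 to 669 and 493 to 731 CPM), and of 5 Schwann cell and nerve markers 0 were called (132 to 212 and 156 to 252.5 CPM). White adipocyte markers, of which 1 of 6 rose and 1 of the 7 listed had no read in any library, summed to 51.6 to 181 and 29.4 to 130 CPM. Erythroid markers, of which the 1 tested rose, summed to 8.60 to 19.0 and 15.4 to 47.5 CPM. Lymphocyte markers summed to at most 5.59 CPM and epithelial markers, 2 of 6 with no read in any library, to at most 1.03 CPM. Their part in the changes of Slc16a1, Slc16a7 and Bsg was not tested.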

How the data were processed

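Raw read counts for each RefSeq gene model were deposited with 1 column per library, per the file headers. STAR, edgeR and build mm9 are named in the submitters' processing notes; no versions are named, and the counting tool with its strand setting was not given in the sources used here. Another deposited file lists what the authors computed for each gene, namely log2 fold change, log2 CPM, p-value and FDR, per the file headers. Control columns carry no group word and were assigned to control samples by their number. Starts in the table count from 0 and were raised by 1.

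Counts were fitted with edgeR 4.0.16 (R 4.3.3): TMM scaling, filterByExpr (minimum count of 10), quasi-likelihood F test of cold against control with no covariate, two-sided p-values adjusted by Benjamini and Hochberg over 11229 genes, threshold 0.05. The SE is the log2 fold change divided by the square root of F. Symbols used repeatedly or turned into dates (27 rows) kept their RefSeq identifier. The labels name separate mice; no pair of libraries in a group agreed within sampling noise (chi-square per degree of freedom at least 3.20). Alternatives were other scalings and filters, DESeq2 1.42.0, limma-voom 3.58.1, a replicate block and fits without single libraries. Scripts were tested on simulated data.

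The members and lists were chosen with earlier results of these data known. Named genes are the 9 members, their neighbours of like pattern and overlapping models, and list genes of smallest p or largest change. Ldha, Ldhd, Mpc1, Mpc2, Pdk4, Acat1, Nptn and Esrra fall outside this rule and were named after their values were seen. Counts over the remaining transporters and over ketone body enzymes are not reported here.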

Additional observations from a re-analysis of the deposited data

Results flagged for a closer look

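Of 22 sets of 5 libraries checked (9 members and 2 ratios, each in control and in cold), 1 had a library far from the others, and chance alone flags about 1 in 20 such sets. This was the log2 ratio of Slc16a1 to Bsg counts in cold replicate 5, with a value of -1.44, against -0.75 to -0.47 in the remaining 4 libraries of the group. Cold replicate 5 held both the lowest Slc16a1 level of the cold group (551 CPM) and its highest Bsg level (1497 CPM).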

How the results depend on the processing

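The calls of Bsg and Slc16a7 held under all 20 alternatives each, with log2 fold changes of 1.13 to 1.20 and -1.84 to -1.60. Slc16a1 kept its direction in all 20 and its call in 14; the count of members that rose was therefore 1 to 2 when single libraries were left out, and fewer samples were then tested. Slc16a3, Slc16a6 and Slc16a13 kept their direction and stayed without a call wherever they passed the filter. The difference in the log2 ratio of Slc16a1 to Bsg was -0.67 to -0.41 without single libraries, with the call lost in 8 of 10, and -0.51 (adjusted exact p = 0.0571) without both control replicate 2 and cold replicate 5, which left fewer samples, and that of Slc16a1 to Slc16a3, never past the threshold, was -0.18 (without cold replicate 1, where the sign turned; the cause was not tested) to 0.41. Without division by counted bases Bsg stood 1.21 times above Slc16a1 in control libraries in place of 3.07 times, by construction. Same-numbered mice are not paired by the labels, and the correlation of their deviations lay between -0.25 and 0.19, with 2 of 5 control libraries nearest to the cold library of their own number. With the replicate number as a block, 981 genes rose and 808 fell in place of 1142 and 1026, Slc16a1 was at 0.61 (adjusted p = 0.0123), and 2 members rose and 1 fell. For the Slc16a1 to Bsg ratio the block gave -0.57 with an exact p of 0.0625, the smallest that 5 pairs allow (0.125 adjusted over the 2 ratios), and for Slc16a1 to Slc16a3 it gave 0.17. With 1 CPM at 4.35 to 7.02 reads, depth limits the 6 members with means below 5 CPM in both groups. It also limits Slc16a7 in the cold group, where its mean was 4.64 CPM.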

Other observations

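The gene models nearest to the called members gave further values. Hcn2, a channel gene on the same strand that begins 4654 bases after the end of Bsg, measured 2.82 ± 0.673 CPM in controls and 35.4 ± 7.10 under cold (SD, n = 5), where Bsg measured 598 and 1347 CPM. No gene model of the table lay within 10000 bases of Slc16a1 or Slc16a7. Slc16a13 and Slc16a11 lie 377 bases apart on opposite strands of chromosome 11, and Slc16a11 measured 0.801 ± 0.826 CPM in controls and 0.704 ± 0.544 under cold. These neighbours were listed after the values of the members were seen.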
